A study of Mus musculus with 6 samples.

Results

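The genes described here are the p53 pathway and its target genes in mouse embryonic stem cells. They were chosen by name, from a list of 32 symbols matched to the platform annotation of the arrays, and 30 of them had a probe set, out of 18193 genes measured. The other 2, Trp53 and Bax, had no probe set named here and were not analysed here. Each gene was represented by 1 probe set, the brightest on average, and the remaining probe sets served as a check. The cells were wild type or carried a truncated Dido3 without its C-terminal part (Dido3deltaCT), and RNA of 3 biological replicates per genotype was read on 6 Affymetrix mouse expression arrays. Both genotypes grew side by side in medium that held leukemia inhibitory factor (LIF), a cytokine that maintains self-renewal. Dido3 is the longest product of the gene Dido1, and the series asks how Dido governs self-renewal and differentiation. The labels name neither the cell lines nor their number, so p-values measure the spread between these samples, which may be that between cultures of 1 line. The labels name no DNA-damaging agent or p53 activator.

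The protein p53 is a transcription factor held low by the ubiquitin ligase Mdm2 and its partner Mdm4. Damage kinases free it from this control, and it then switches on genes for cell cycle arrest, DNA repair, metabolic stress responses and cell death, Mdm2 among them, which closes a feedback loop. Mouse embryonic stem cells hold abundant p53 and lack a firm G1 checkpoint, and p53 is known to promote their differentiation.

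The protein binds DNA through a decamer, 10 bases of a known consensus, of which a full response element holds a pair. RefSeq promoter windows (assembly GRCm38.p6, from 250 bases before to 50 after a start) matched 23 of the 30 measured members by symbol, and 10 of these 23 (43.5%) held an exact p53 consensus decamer. Of 14452 genes on the arrays with a window, 1242 (8.59%) held one. The decamer is its own complement in form, so 1 search covers both strands. The stretches below show the decamer in capitals with up to 20 bases on either side, for the members whose values are discussed most; a match is a description and not a proven binding site.
Ccng1 (chr11:40755442-40755491, minus strand): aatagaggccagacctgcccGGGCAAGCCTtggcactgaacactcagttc
Cdkn1a (chr17:29090908-29090957, plus strand): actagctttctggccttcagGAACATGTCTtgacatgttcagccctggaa
Ckap2 (chr8:22185993-22186042, minus strand): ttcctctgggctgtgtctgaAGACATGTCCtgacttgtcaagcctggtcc
Mdm2 (chr10:117710915-117710964, minus strand): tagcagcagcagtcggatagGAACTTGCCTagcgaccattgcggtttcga
Ppm1d (chr11:85311102-85311151, plus strand): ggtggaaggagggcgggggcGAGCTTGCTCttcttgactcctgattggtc
Sesn1 (chr10:41887246-41887295, plus strand): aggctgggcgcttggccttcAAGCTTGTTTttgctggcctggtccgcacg
Aen (chr7:78895917-78895966, plus strand): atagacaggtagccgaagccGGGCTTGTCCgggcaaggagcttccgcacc
The decamer of Ccng1 began 185 bases before the start and was directly preceded by 10 bases that matched 9 of the 10 consensus positions. Cdkn1a held a second exact decamer 12 bases before the one shown. Only the best-matching neighbour of each decamer is described, so a weaker match directly after the one shown for Cdkn1a is not. In Ckap2 the next 10 bases matched 8 positions. In Mdm2 the best of the neighbouring stretches, at spacers of 0 to 13 bases, matched 6. Gadd45a, Polk and Ei24 also held a decamer, and the windows of Btg2, Eda2r, Phlda3 and Plk2, the members with the largest upward differences, held none. The median difference between the genotypes was 0.32 log2 units over the 10 members with a decamer and 0.28 over the 13 with a window and none.

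Values are deposited log2 expression values, so 1 unit is a 2-fold change, and differences are given as truncated minus wild type. The members must be read against array-wide differences. Dido1 itself (probe set 1456405_at) fell by 1.50 (SE 0.19; limma adjusted p = 0.0104), but its probe sets disagreed. The probe set 1437647_at fell by 1.47, 1437182_at differed by 0.68 with truncated arrays above all wild-type arrays, and the mean of all its probe sets differed by −0.44 (adjusted p = 0.0374). The call was lost without wild-type replicate 2 or truncated replicate 1 or 3 (adjusted p 0.0578 to 0.0754). Their positions in the transcript were not analysed here, so these values do not check the labels. Stem cell transcripts were high in both genotypes, with Pou5f1 at 11.15 ± 0.06 and 11.44 ± 0.04 (SD, n = 3 each) in wild-type and truncated cells. Nanog had means of 10.78 and 11.25 and Sox2 of 11.51 and 11.45, and none of these 3 genes passed. Wild-type replicate 3 and truncated replicate 2 had high poly-A spike-in controls (12.1 and 12.5), here called the high-control pair, and the 4 low-control arrays lay between 6.12 and 7.85. That pair also had the lowest mean of 23 fibroblast markers, 5.50 and 6.64 against 7.87 to 8.44. The fibroblast list ranged from 5.50 to 8.44 in wild-type and from 6.64 to 7.95 in truncated arrays, and 0 of its 23 genes passed the test between genotypes (limma; 0 at an unadjusted p of 0.05). In bulk RNA, fewer cells of a type and less RNA per cell cannot be told apart. The 3' to 5' difference of the beta-actin controls, a sign of RNA quality, averaged 1.07 ± 0.11 on wild-type arrays against 0.85 ± 0.02 on truncated ones (exact permutation p = 0.1, the smallest possible), and its part in the results was not tested. The Y-linked Eif2s3y fell by 4.89, Xist rose from a mean of 8.74 to 9.31 (adjusted p = 0.0483) and 121 of 618 X-linked genes rose while 3 fell, so genotype and sex chromosome content cannot be told apart.

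Of the 30 measured members, 1 rose in the truncated cells, Btg2, 0 fell and 29 did not pass the test (limma, Benjamini-Hochberg over all 18193 genes, adjusted p of 0.05). Over all genes, 4.67% passed, with 2.7% of all genes upward and 1.97% downward. The share of members, 1 of 30, is near that background. At an unadjusted p of 0.05, 9 members were higher and 1 was lower, together 33.3% of the members against 18.5% of all genes and 25% of the 11724 genes above the expression limit of 4.82, the median of all values. The median difference of the members was 0.29, against 0.01 over all genes, and 20 of 30 (66.7%) differed upward, against 51.8%. The groups did not overlap for 10 members (33.3%; background 22.4% of all genes and 28.8% of those above the limit), with truncated arrays above all wild-type arrays in 8 (background 11.6%) and below them in 2 (background 10.9%). Of the 30 members, 28 had a mean above the expression limit, where 6.53% of genes passed the adjusted threshold. The members were named as a pathway and not for these values, but with earlier results of these data known, so the shift is described and not tested.

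The count of members depended on how the arrays were weighed. Blocked on the poly-A level, 5 of 30 members passed (Btg2, Eda2r, Phlda3 and Plk2 upward and Trp53bp1 downward), against 8.62% of all genes. Over the 4 low-control arrays 5 passed (Btg2, Eda2r, Sesn1 and Trp53inp1 upward and Trp53bp1 downward), against 5.12% of all genes. The median member difference was 0.40 there and 0.05 in the high-control pair. With the fibroblast markers as a covariate 7 members passed, against 11% of all genes, and without wild-type replicate 3 there were 8, against 6.55% of all genes. The count was 0 when wild-type replicate 2 or any 1 truncated array was left out, where 0.709% to 2.76% of all genes passed.

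**Figure D1:**
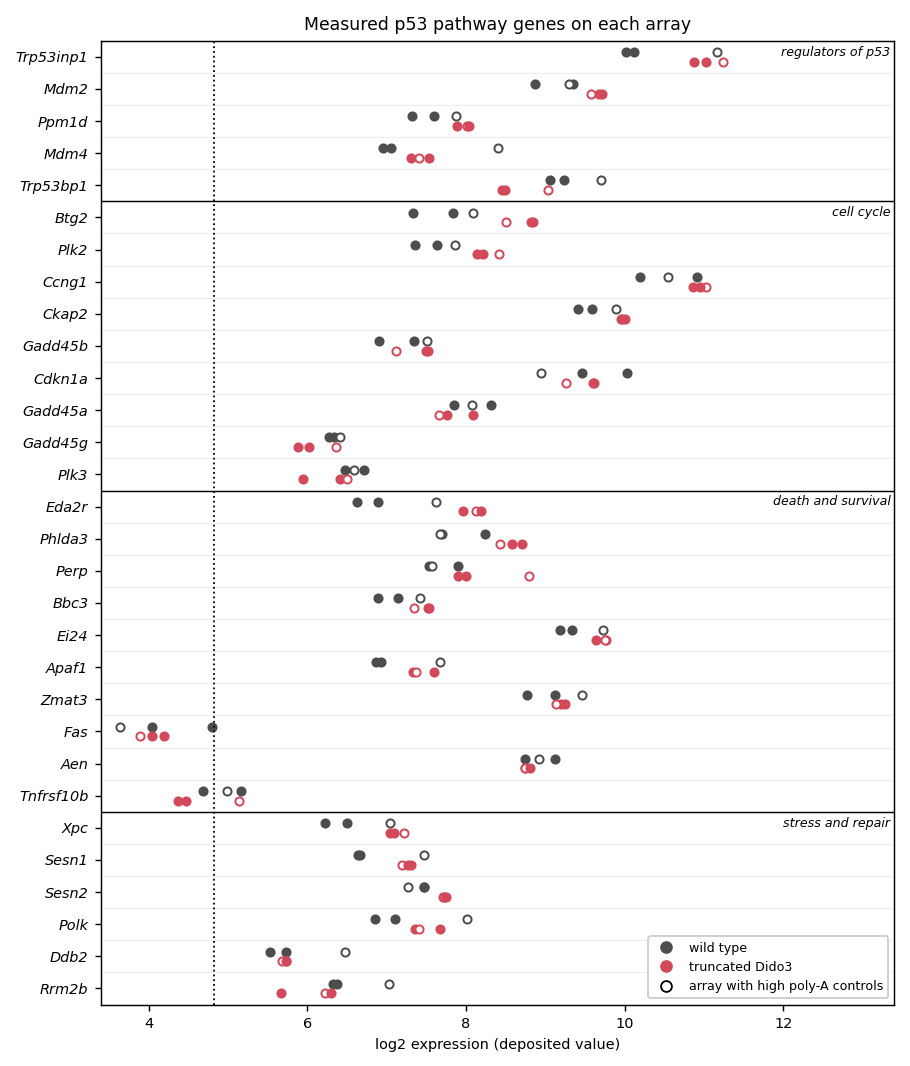
Deposited log2 expression (x axis) of the 30 measured p53 pathway genes (y axis, grouped by role), with 1 point per array; grey points are wild type, red points truncated Dido3, open points the pair of arrays with high poly-A controls, and the dotted line the expression limit of 4.82. The red points lie above all grey points in 8 genes and below them in 2, and the open grey point is often the highest of its group.

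The regulators of p53 showed differences in both directions, and 0 of 5 passed (limma). At an unadjusted limma p of 0.05, 2 were higher and 1 was lower (60%). That cut-off took 18.5% of all genes and 25% of those above the expression limit. Mdm2, the ubiquitin ligase that marks p53 for degradation and is itself a p53 target, was at 9.35, 8.86 and 9.30 in wild-type replicates 1 to 3 and at 9.68, 9.58 and 9.71 in truncated replicates 1 to 3. All truncated arrays lay above all wild-type arrays, and the difference was 0.48 (SE 0.14; limma adjusted p = 0.127). Its second expressed probe set, 1427718_a_at, was at 8.74, 8.27 and 8.42 against 9.33, 9.22 and 9.29. There the difference was 0.80, and it passed the test over all 45037 probe sets (adjusted p = 0.031), where 2.8% of probe sets passed. Ppm1d, a phosphatase that removes activating marks from p53 and from the damage kinases, was at 7.60, 7.31 and 7.87 against 7.89, 8.02 and 8.04. The groups were separated by 0.39 on average without passing (adjusted p = 0.229), and its second probe set, 1449092_at, differed by 0.32.

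Trp53bp1, which encodes a scaffold that assembles repair proteins at double-strand breaks, was the member with the lowest difference. It stood at 9.06, 9.23 and 9.71 in wild-type and at 8.45, 9.04 and 8.50 in truncated arrays. Every truncated array was below every wild-type array, with a difference of −0.67 (SE 0.22; adjusted p = 0.158). Its other expressed probe sets, 1426957_at and 1435609_at, differed by −0.56 and −0.61, again without overlap. The gene passed when blocked on the poly-A level (adjusted p = 0.0105), and the difference was −0.67 both over the 4 low-control arrays and in the high-control pair. It passed in 4 of 17 alternatives, and in 0 of those with 1 array left out (limma adjusted p 0.106 to 0.439).

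Mdm4, which binds p53 and blocks its activation domain, gave no stable direction. The values were 6.95, 7.06 and 8.41 in wild-type and 7.31, 7.40 and 7.54 in truncated arrays, so wild-type replicate 3 lay above the truncated arrays and the other wild-type arrays below them. The difference was −0.05 (adjusted p = 0.969), 0.42 over the 4 low-control arrays and below 0 in the high-control pair. That probe set carries the suffix of those that can cross-hybridise; the probe set 1419558_at differed by 0.57 without overlap (adjusted p = 0.097). Trp53inp1, a stress protein that enhances p53 activity, was at 10.02, 10.12 and 11.16 against 10.88, 11.24 and 11.02. Wild-type replicate 3 fell within the truncated range, and the difference of 0.61 did not pass (adjusted p = 0.351); it was 0.88 over the 4 low-control arrays and 0.08 in the high-control pair.

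**Figure D2:**
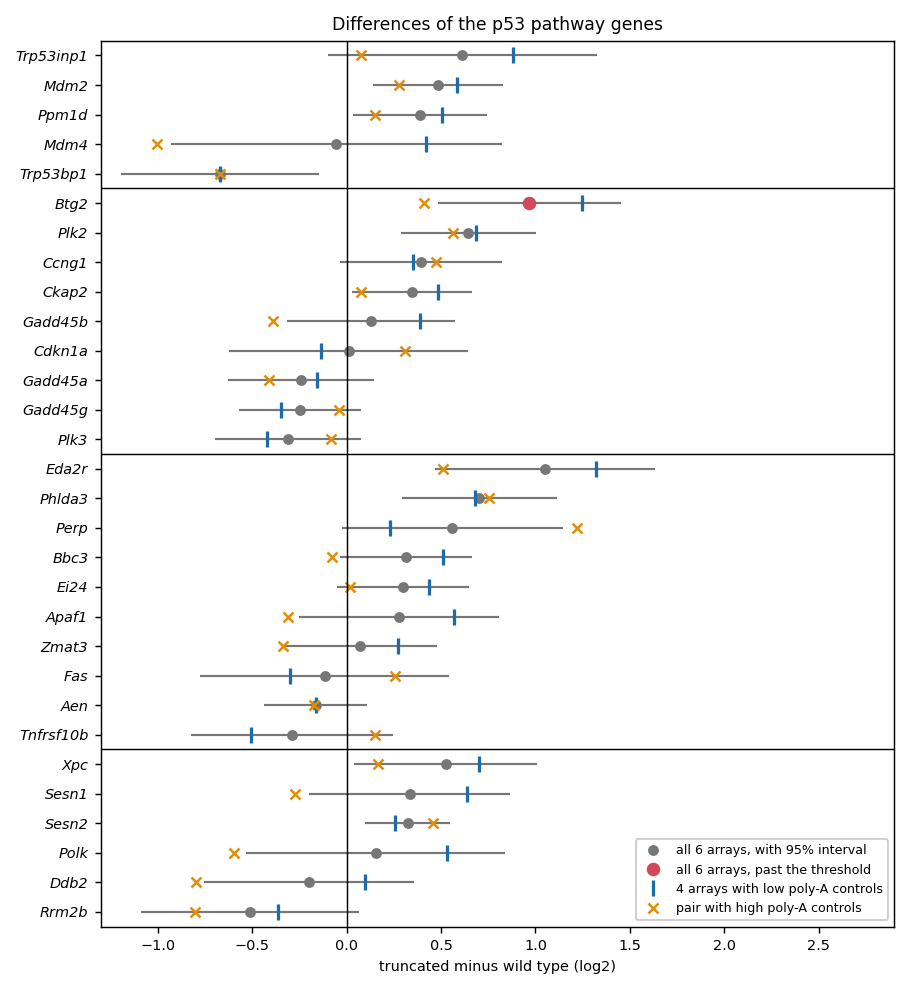
Difference between truncated and wild-type cells in log2 units (x axis) for each measured member (y axis, grouped by role); circles with bars give the estimate of all 6 arrays with its 95% interval, blue ticks the 4 arrays with low poly-A controls and orange crosses the pair with high poly-A controls. Btg2, at 0.97, is the red circle, the single member past the threshold, and for Trp53bp1 tick and cross coincide at −0.67.

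Among the cell cycle genes, Btg2 rose and 8 of 9 did not pass, where 4.67% of all genes passed. At an unadjusted limma p of 0.05, 3 were higher and 0 lower (33.3%), against 18.5% of all genes and 25% of those above the expression limit. Btg2, an antiproliferative gene that is also an immediate early gene, was at 7.83, 7.34 and 8.09 in wild-type and at 8.82, 8.50 and 8.84 in truncated arrays. The groups did not overlap, and the rise of 0.97 (SE 0.20, 1.96-fold) had a limma adjusted p of 0.0488. The call was lost in the mean of its probe sets (0.79, adjusted p = 0.0789). It was also lost without any 1 array other than wild-type replicate 3 (adjusted p 0.0835 to 0.202 in those 5 cases). The 17 alternatives gave adjusted p-values between 0.0064 and 0.202. Its second probe set, 1448272_at, differed by 0.61 with overlapping groups (adjusted p = 0.267).

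Cdkn1a, the CDK inhibitor that is the main effector of p53-dependent arrest, stood at the same mean in both genotypes. It was at 10.03, 9.46 and 8.95 in wild-type and at 9.61, 9.26 and 9.61 in truncated arrays. The difference was 0.01 with a 95% interval of −0.62 to 0.64 (adjusted p = 0.993), which leaves changes of either sign possible. In each genotype the lowest value was that of the array with high poly-A controls and few fibroblast transcripts; whether fibroblast RNA contributed was not tested. The second probe set, 1421679_a_at, differed by 0.04.

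Plk2, a polo-like kinase induced by stress, was at 7.64, 7.35 and 7.86 against 8.14, 8.42 and 8.22. The groups were separate and the difference was 0.64 (SE 0.15; adjusted p = 0.0656, and 0.0195 when blocked on the poly-A level). Plk2 passed in 4 of 17 alternatives, with a limma adjusted p of up to 0.199 when 1 array was left out. Ckap2, a microtubule-associated protein of the mitotic spindle, was at 9.59, 9.41 and 9.89 against 10.00, 9.97 and 9.96. These groups were separate as well, by a mean of 0.35 (adjusted p = 0.229). Ccng1, which encodes cyclin G1, was at 10.91, 10.19 and 10.55 against 10.86, 11.03 and 10.94 on the probe set used. That pair of groups overlapped, with a difference of 0.39 (adjusted p = 0.316), whereas its probe sets 1450016_at and 1450017_at differed by 0.72 and 0.67 without overlap (adjusted p = 0.093 and 0.151). The polo-like kinase Plk3 differed the other way from Plk2, by −0.31 (adjusted p = 0.392).

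The 3 Gadd45 genes, whose small acidic proteins link stress to growth arrest, had overlapping groups and none passed (limma; 0 of 3 at an unadjusted p of 0.05). Gadd45a was at 7.84, 8.32 and 8.07 against 7.76, 7.66 and 8.08, a difference of −0.24. Gadd45g was at 6.33, 6.28 and 6.41 against 6.02, 6.37 and 5.89, a difference of −0.25. Gadd45b differed by 0.13, and its probe set 1449773_s_at by −0.25. Adjusted p for the 3 genes ranged from 0.418 to 0.812.

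Of the 10 measured genes of cell death and survival, 0 rose and 0 fell (limma), with a median difference of 0.29. At an unadjusted limma p of 0.05, 2 were higher and 0 lower (20%), near the 18.5% of all genes and 25% of those above the expression limit. Eda2r, a receptor of the tumour necrosis factor receptor family, had the largest difference of all members. It was at 6.89, 6.63 and 7.62 in wild-type and at 7.96, 8.13 and 8.19 in truncated arrays. All truncated arrays were higher, by 1.05 on average (SE 0.25, 2.07-fold; limma adjusted p = 0.0657), with 1.32 over the 4 low-control arrays and 0.51 in the high-control pair. Blocking on the poly-A level gave an adjusted p of 0.0254. The gene passed in 5 of 17 alternatives, with a limma adjusted p of up to 0.229 when 1 array was left out. Eda2r is the single X-linked member, and the median difference of X-linked genes was 0.24 against 0.00 for autosomal genes; the part of the X chromosome in this value was not tested.

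Phlda3, which restrains the survival kinase Akt, was at 8.24, 7.69 and 7.67 against 8.58, 8.42 and 8.71. The groups did not overlap, and the difference was 0.70 (SE 0.17; adjusted p = 0.0753, and 0.0419 when blocked on the poly-A level). It was 0.68 over the 4 low-control arrays and 0.75 in the high-control pair. Phlda3 passed in 4 of 17 alternatives, with a limma adjusted p of up to 0.256 when 1 array was left out. Perp, a membrane protein of desmosomes and a p53 effector in apoptosis, was at 7.90, 7.53 and 7.58 against 7.90, 8.80 and 7.99. Its difference of 0.56 rested on truncated replicate 2, without which it was 0.28; with all arrays the adjusted p was 0.293.

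Bbc3, which encodes the BH3-only killer protein PUMA, was at 6.89, 7.14 and 7.42 against 7.52, 7.35 and 7.54. The ranges overlapped through wild-type replicate 3, with a difference of 0.32 (adjusted p = 0.325). Apaf1, the scaffold of the apoptosome, was at 6.93, 6.86 and 7.68 against 7.33, 7.37 and 7.60. Again wild-type replicate 3 was the highest array, and the difference was 0.28 (adjusted p = 0.61). Ei24, a protein of the endoplasmic reticulum, differed by 0.30 and Zmat3, a zinc finger protein that binds RNA, by 0.07; neither passed (adjusted p = 0.354 and 0.904).

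Death receptors gave little signal. Fas was at 4.80, 4.04 and 3.64 against 4.19, 3.90 and 4.04, below the expression limit on every array. Tnfrsf10b, the receptor for the ligand TRAIL, was at 5.17, 4.69 and 4.99 against 4.47, 5.14 and 4.37, with a mean below the limit as well. Their differences of −0.12 and −0.29 are close to the floor of the arrays and carry no direction.

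Aen, an apoptosis-enhancing nuclease, was read in opposite ways by its probe sets. The probe set used, 1423957_at, was at 9.13, 8.75 and 8.92 against 8.75, 8.75 and 8.81, a difference of −0.16 (adjusted p = 0.545), and 1450506_a_at differed by −0.07. The dimmer probe set 1437373_at was at 5.99, 5.96 and 5.02 against 7.14, 7.31 and 7.19. That rise of 1.55 passed over all probe sets (adjusted p = 0.031), and 1451186_at differed by 1.06 without overlap (adjusted p = 0.065). Which transcripts each of them reads was not analysed here.

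None of the 6 genes of stress and repair passed (limma). At an unadjusted limma p of 0.05, 2 were higher and 0 lower (33.3%), against 18.5% of all genes and 25% of those above the expression limit. Sesn2, a sestrin that restrains the growth kinase mTORC1, was at 7.47, 7.48 and 7.27 in wild-type and at 7.71, 7.72 and 7.75 in truncated arrays. The groups were separate by a small margin, with a difference of 0.32 (SE 0.09; adjusted p = 0.119), and the probe set 1425139_at differed by 0.48, also without overlap. Its relative Sesn1 was at 6.66, 6.64 and 7.47 against 7.31, 7.20 and 7.27. Wild-type replicate 3 exceeded all truncated arrays; the difference was 0.33 (adjusted p = 0.523), and without that array it was 0.61 (adjusted p = 0.0187).

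Xpc, which recognises bulky lesions in nucleotide excision repair, was at 6.22, 6.50 and 7.05 against 7.09, 7.21 and 7.04. The ranges overlapped, and the difference was 0.52 (adjusted p = 0.234). Ddb2, its partner in recognising ultraviolet damage, was at 5.53, 5.73 and 6.47 against 5.73, 5.68 and 5.73. The difference of −0.20 came with a wild-type SD of 0.50 and a truncated SD of 0.03, and it was 0.10 over the 4 low-control arrays. Polk, a polymerase that copies past lesions, differed by 0.15 (adjusted p = 0.859). Rrm2b, the p53-inducible subunit of ribonucleotide reductase, was at 6.32, 6.38 and 7.03 against 5.67, 6.23 and 6.30. It was the second member with all truncated arrays below the wild-type ones, by 0.51 on average without passing (adjusted p = 0.334).

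Wild-type replicate 3 set much of the spread among the members. It was the highest wild-type array for 19 of 30 members (63.3%), against 31.8% of all genes and 36.5% of those above the expression limit. The SD of the wild-type arrays exceeded that of the truncated arrays for 26 of 30 members (86.7%). The background was 58.2% of all genes and 64.9% of those above the expression limit. The median SD of the members was 0.33 on wild-type and 0.14 on truncated arrays. The mean over the 30 members was 7.68, 7.53 and 7.95 in wild-type replicates 1 to 3 and 7.86, 7.94 and 7.92 in truncated replicates 1 to 3. Wild-type replicate 3 thus had the highest member mean of all 6 arrays. It also had high poly-A controls and the lowest fibroblast markers, and the part of these in the member values was not tested. Signs over the 4 low-control arrays and in the high-control pair were the same for 19 of 30 members. The background was 10722 of all 18193 genes and 7416 of the 11724 genes above the expression limit, a similar share.

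**Figure D3:**
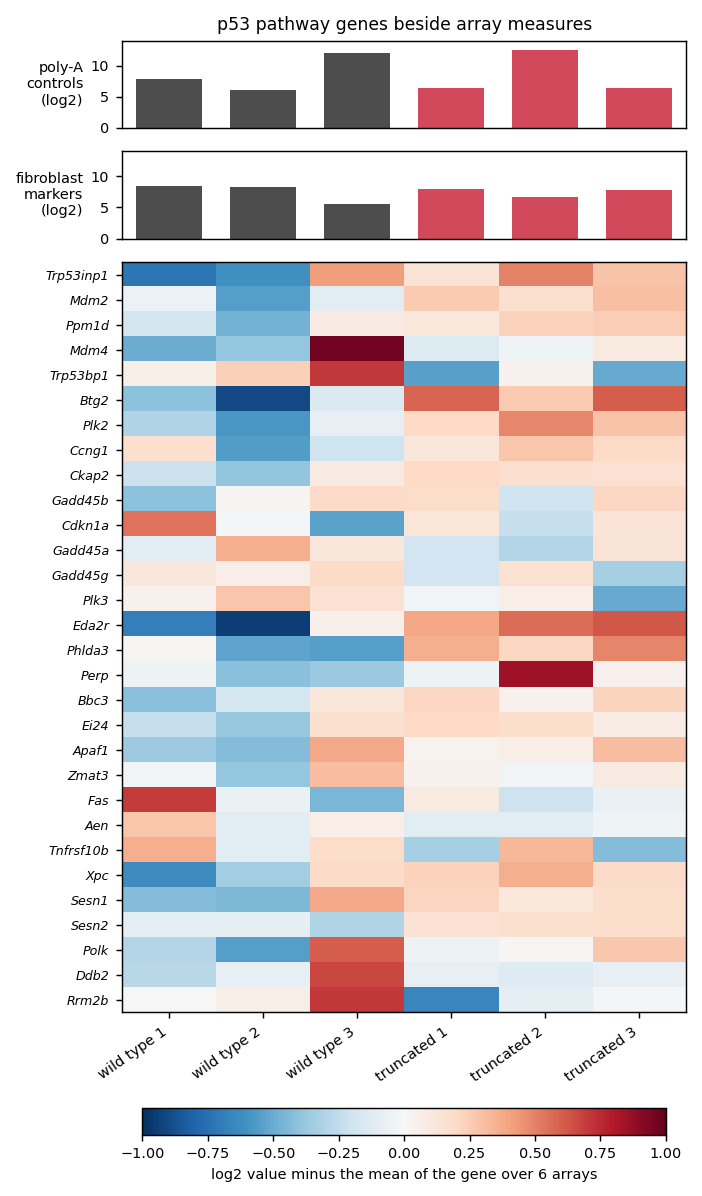
Upper bars give the mean log2 value of 24 poly-A control probe sets and of 23 fibroblast markers on each array (columns; grey wild type, red truncated); the colour map shows each member's log2 value minus its mean over the 6 arrays, from blue (−1) to red (1). Wild-type replicates 1 and 2 are mostly blue, and wild-type replicate 3 is red for Mdm4, Trp53bp1, Polk, Ddb2 and Rrm2b.

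The 30 members were covered by 63 probe sets, of which 49 were above the expression limit. At the level of probe sets, 2 rose, 1427718_a_at of Mdm2 and 1437373_at of Aen, and 0 fell, against 2.8% of all probe sets in either direction. Btg2, called at the gene level, did not pass there (adjusted p = 0.061). Another expressed probe set existed for 15 members, and in 12 of these all had the sign of the one used. The exceptions were Mdm4, Aen and Gadd45b.

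**Figure D4:**
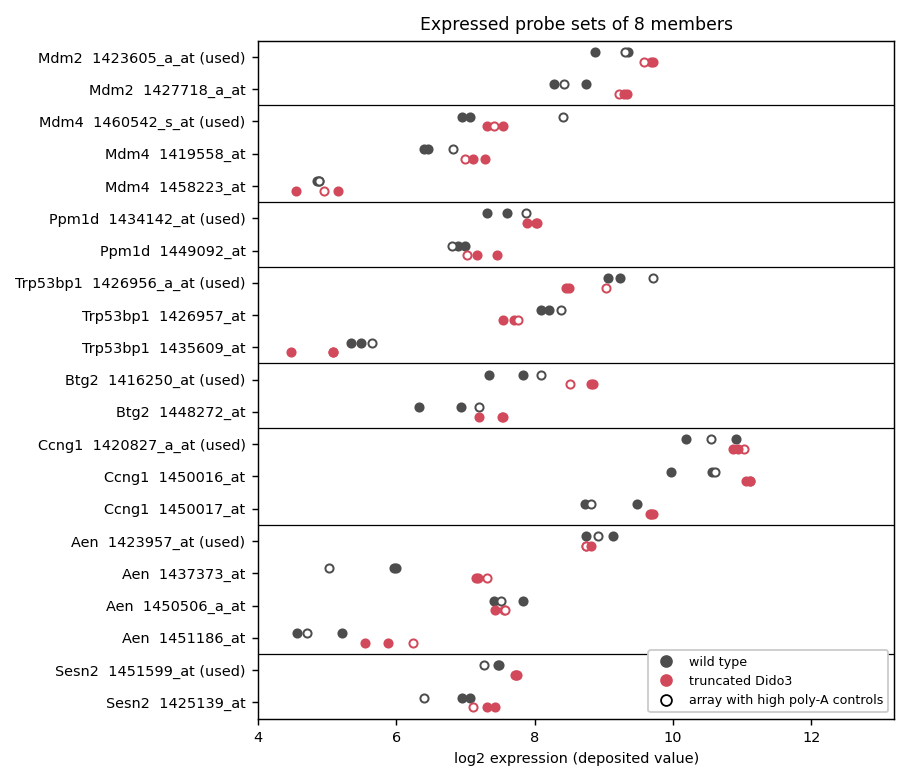
Deposited log2 expression (x axis) on each array for the expressed probe sets (y axis) of 8 members, with the probe set used for the gene marked; grey points are wild type, red points truncated, open points the pair with high poly-A controls. In Trp53bp1 the 3 probe sets separate the genotypes in the same direction, and in Aen 1437373_at and 1451186_at separate them whereas the other pair does not.

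Beyond the members, 98 of 106 further genes of the p53 network were measured, and 5 rose and 4 fell, together 9.18% of them, against 4.67% of all genes and 6.53% of those above the expression limit. The counts by list that follow stand against the same shares. Of 36 measured further targets 2 rose and 1 fell, with a median difference of 0.14. Pmaip1, which encodes the BH3-only protein NOXA, was at 6.15, 6.04 and 6.70 against 8.25, 8.37 and 8.40, a rise of 2.04 (SE 0.18, 4.12-fold; limma adjusted p = 0.00377) that passed under all 17 alternatives. Fbxw7, a substrate receptor of a ubiquitin ligase, rose by 0.61 (adjusted p = 0.0457), and this call was lost in 10 alternatives, the 6 that left out an array included.

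Tigar, a phosphatase that lowers glycolytic flux, fell on the probe set used, from 8.07, 7.95 and 7.95 to 6.48, 6.47 and 6.29. The difference of −1.57 (SE 0.10) had a limma adjusted p of 0.000871, and every truncated array was lower. Its probe sets disagreed. The probe set 1435929_at fell by 0.50 (adjusted p = 0.0343), while 1439859_at rose from 6.21, 6.14 and 5.91 to 7.16, 7.24 and 7.22 (adjusted p = 0.0053). The mean of the 3 probe sets differed by −0.32 and did not pass (adjusted p = 0.079).

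Of 17 measured upstream kinases and checkpoint proteins, 0 rose and 1 fell, with a median difference of −0.26. Nbn, a subunit of the complex that senses double-strand breaks and activates the kinase Atm, was at 8.36, 8.05 and 8.10 against 7.41, 7.25 and 7.32. All truncated arrays were lower, a fall of 0.84 (SE 0.11; adjusted p = 0.012) that passed in 15 of 17 alternatives and was lost without truncated replicate 1 or 3 (adjusted p = 0.0657 and 0.0681). Of 24 ligases, modifiers and cofactors of p53, 1 rose and 1 fell. Huwe1, an X-linked ubiquitin ligase that acts on p53, was at 9.63, 9.84 and 9.63 against 10.89, 10.37 and 10.90, a rise of 1.02 (adjusted p = 0.0222; 0.0623 with the replicate block). The call was lost without wild-type replicate 1 or 2 or truncated replicate 1 or 3 (adjusted p 0.0644 to 0.114). As with Eda2r, the part of the X chromosome was not tested. Kat5, the acetyltransferase also known as Tip60, fell by 0.44 (adjusted p = 0.0478), and 1433980_at of the same gene fell by 0.45; the gene call was lost in 10 of 17 alternatives.

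Among 5 further CDK inhibitors, 0 rose and 1 fell. Cdkn1b, which holds cyclin E with Cdk2 in check, was at 6.28, 6.82 and 7.15 against 5.56, 5.68 and 5.80. All truncated arrays were lower, with a fall of 1.07 (SE 0.22; adjusted p = 0.0422) that did not pass over the 4 low-control arrays (−0.88, adjusted p = 0.0948) nor without wild-type replicate 2 or any 1 truncated array (adjusted p 0.111 to 0.181). Of 14 measured cell cycle genes that p53 is known to repress, 1 rose and 0 fell. It was Mybl2, a transcription factor of proliferating cells, with a rise of 0.75 (adjusted p = 0.0162; 0.0534 with the replicate block), and the median of the list was 0.05. The call of Mybl2 was lost without wild-type replicate 1 or any 1 truncated array (adjusted p 0.0518 to 0.0891), and also over the 4 low-control arrays. The second probe set of Mybl2, 1454946_at, differed by 0.51 without overlap and did not pass over all probe sets (limma adjusted p = 0.282). In the p53 family, Trp73 was at 4.49, 4.22 and 4.66 against 5.50, 5.21 and 5.73, a rise of 1.02 (adjusted p = 0.0236) from a wild-type mean below the expression limit, and its call was lost without wild-type replicate 1 or 2 or truncated replicate 1 or 3, with an adjusted p of up to 0.122. Trp63, named although it did not pass (limma adjusted p = 0.717), differed by 0.0834 below that limit.

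**Figure D5:**
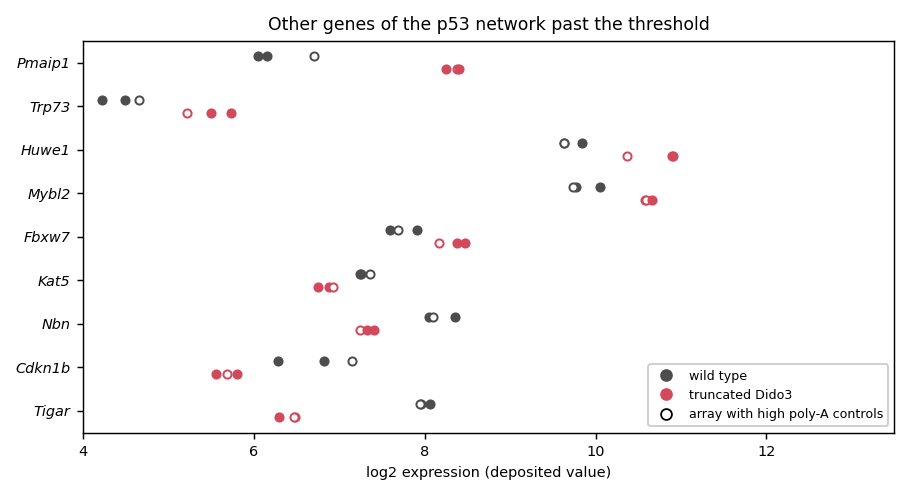
Deposited log2 expression (x axis) on each array for the 9 further p53 network genes past the threshold (y axis, from the largest rise to the largest fall); grey points are wild type, red points truncated, open points the pair with high poly-A controls. The genotypes do not overlap for any of the 9 genes, from Pmaip1, higher by 2.04, to Tigar, at −1.57 on the probe set shown.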

How the data were processed

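RNA was isolated with TRIzol and RNeasy columns and biotin-labelled in a single amplification round, per the labels' protocols. The authors deposited a log2 value per probe set; their summarising and normalising are not given in the sources used here. That they are log2 was inferred from their range. Array medians lay between 4.80 and 4.86, and no further scaling was applied. Symbols came from the platform annotation, matched through Entrez identifiers to RefSeq (GRCm38.p6); probe sets with several symbols and 64 controls were not used for genes.

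Genotypes were compared in R 4.3.3 with limma 3.58.1 (lmFit, eBayes), two-sided, with the genotype as the only term and Benjamini-Hochberg adjustment over all 18193 genes or 45037 probe sets. The number of arrays limits the precision. On simulated arrays of 18193 genes, the fit recovered 85 of 100 genes set to differ by 1 log2 unit and 95 of 100 set to differ by 2, and 10 unchanged genes were called. The simulated noise was independent between genes and arrays, with the same spread in both genotypes. The members had a median wild-type SD of 0.33, against 0.15 over all genes, so these rates need not hold for them. The high-control pair is the pair of arrays whose mean over 24 poly-A controls lay over 2 log2 units above the median array. Same-numbered replicates deviated from their group means with correlations of 0.29, −0.36 and −0.13, so the numbers were not taken to pair the arrays. Promoter windows were searched, and plots drawn with matplotlib 3.10.9, in Python 3.11.15.

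All 32 members were to be named, with up to 4 genes past the threshold of each further list by size, Dido1, Pou5f1, Nanog, Sox2, Eif2s3y and Xist; further genes are marked. The members, lists and alternatives were chosen with earlier results of these data known. The closing section gives the alternatives: the replicate block, median centring, quantile normalisation, dropping probe sets that are dim or cross-hybridise, a trended and robust variance, array weights, the mean of all probe sets, the poly-A level as a block, the low-control arrays only, fibroblast markers as a covariate and leaving out each array.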

Additional observations from a re-analysis of the deposited data

How the results depend on the processing

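Btg2 was the single member that passed in the fit as reported and in 6 alternatives with all 6 arrays, of 30 members tested, or 28 with dim probe sets left out; without wild-type replicate 1 the single member was Phlda3. The count was 10 with array weights, 7 with the fibroblast covariate, 5 when blocked on the poly-A level, 5 over the 4 low-control arrays and 0 in the mean of all probe sets, and 0 to 8 without 1 array. Over all genes the count of 850 became 466 with the replicate block, 2057 with array weights, 1569 with the poly-A block and 1995 with the fibroblast covariate, and 129 to 1191 with 1 array left out. For the other network genes 9 of 98 became 20, 15 and 18 with array weights, the poly-A block and the fibroblast covariate. In these 3 settings 11.3%, 8.62% and 11% of all genes passed, against 4.67% in the fit as reported. With 1 array left out the count was 2 to 9, where 0.709% to 6.55% of all genes passed. The replicate block did not change the call of any member. Among the other network genes it cost Huwe1, Kat5, Fbxw7 and Mybl2 their calls, and the replicate numbers did not pair the arrays.

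Signs turned for some members, among them Mdm4, Aen and Gadd45b, whose expressed probe sets disagreed in sign. Cdkn1a became −0.0125 with median centring, −0.0019 with array weights, −0.14 over the 4 low-control arrays and −0.0139 with the fibroblast covariate. Mdm4 became 0.57 without cross-hybridising probe sets, 0.23 with array weights, 0.10 in the mean of all probe sets and 0.42 over the 4 low-control arrays. Aen became 0.60 and Gadd45b −0.0623 in the mean of all probe sets, Ddb2 0.10 over the 4 low-control arrays and Tnfrsf10b 0.0826 without cross-hybridising probe sets. With 1 array left out, Cdkn1a ranged from −0.25 to 0.29, Mdm4 from −0.32 to 0.41, Ddb2 from −0.39 to 0.083, Fas from −0.38 to 0.20, Gadd45b from −0.0468 to 0.26, Polk from −0.0827 to 0.50 and Zmat3 from −0.11 to 0.24. The cause of these changes of sign was not tested. Fas and Tnfrsf10b were not tested with dim probe sets left out.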

Other observations

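Of the 17 measured genes of the checkpoint list, 11 differed downward and 6 (35.3%) upward. The share that differed upward was 51.8% of all genes and 48.2% of those above the expression limit. Nbn alone passed (5.88%), against 4.67% of all genes and 6.53% of those above the expression limit. The genotypes did not overlap for 5 of the 17 (29.4%), against 22.4% of all genes and 28.8% of those above the expression limit. These 5 were Nbn, Rad50, Mdc1 and Brca1 with truncated arrays below wild type, and Rnf8 with truncated arrays above; the genes other than Nbn are named after their values were seen. Brca1, a repair factor of homologous recombination, was at 8.53, 8.89 and 8.82 in wild-type and at 8.20, 8.23 and 8.25 in truncated arrays, a difference of −0.52 (limma adjusted p = 0.0561). Mdc1, the scaffold that recruits break factors to marked chromatin, differed by −0.79 (adjusted p = 0.0658), and Rad50, a partner of Nbn, by −0.62 (adjusted p = 0.108). Rnf8, a ubiquitin ligase of the break response, was at 7.63, 7.69 and 7.48 against 7.85, 7.73 and 7.93, a difference of 0.24 (adjusted p = 0.278). Mre11a, which forms a complex with Nbn and Rad50, differed by −0.10, and the kinases Atm, Atr and Chek2 by 0.0141, 0.33 and −0.0382, all with overlapping groups. The kinases Chek1 and Prkdc differed by −0.32 and −0.27, also with overlapping groups (limma adjusted p = 0.278 and 0.553).

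The CDK inhibitor Cdkn1c, an imprinted gene likewise singled out after its values were seen, was at 6.90, 7.34 and 7.01 against 5.93, 6.57 and 5.50. The difference of −1.08 was as large as that of Cdkn1b but did not pass (limma adjusted p = 0.077), and it was −1.40 over the 4 low-control arrays and −0.44 in the high-control pair. Cdkn2b, likewise singled out after its values were seen, was at 8.23, 7.59 and 5.86 against 7.88, 7.50 and 7.68 (limma adjusted p = 0.756). It was low only on wild-type replicate 3, the array with the lowest fibroblast markers and also with high poly-A controls. The part of either in this value was not tested.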
